A study of Mus musculus with 16 samples.

Results

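The apolipoproteins and the transfer protein that loads apolipoprotein B with lipid are represented here by 10 genes: Apoa1, Apoa2, Apoa4, Apoa5, Apob, Apoc1, Apoc3, Apoe, Apom and Mttp. They were chosen by name, out of 55487 genes in the deposited table, and all 10 were among the 14553 genes that passed the filter on low counts. RNA of whole liver came from 12-week-old wild type C57BL/6J mice, in 16 sequencing libraries that form 4 groups of 4. The groups breathed room air, sustained hypoxia, intermittent hypoxia or overlap hypoxia, the last combining both exposures per the series title. The sources used here do not give oxygen levels, exposure times, sex or time of collection. The study's title presents the combination as a cardio-metabolic condition, so the comparisons ask how each exposure, and their combination, left the liver's lipoprotein transcripts.

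Lipoproteins carry fat and cholesterol through the blood. In the hepatocyte, the microsomal triglyceride transfer protein encoded by Mttp loads lipid onto apolipoprotein B, the single large protein that forms the shell of very-low-density lipoprotein. High-density lipoprotein is built on apolipoproteins A-I and A-II, and small exchangeable apolipoproteins move between particles and set how fast lipases empty them and receptors take them up.

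Libraries held between 10940275 and 64789635 counts. Ribosomal RNA took 18.5% to 34.8% of the counts in the intermittent hypoxia libraries and 1.57% to 10.2% in room air, and mitochondrial genes took 6.23% to 11.7% against 1.18% to 2.75%, so these groups did not overlap in either share. The extraction protocol in the labels names retina while the tissue label is liver. The summed level of 9 hepatocyte markers was 59951 to 88640.5 CPM (edgeR's depth-scaled counts, with TMM factors) over the 16 libraries, whereas 8 photoreceptor markers summed to at most 10.8 CPM and Rcvrn was at 0 in every library. Of 8 enterocyte markers, which matter because the intestine also makes apolipoproteins, the sum was 45.8 to 139.2 CPM and Cdx1 was at 0 in every library. In bulk tissue, fewer cells of a type and less RNA per cell cannot be told apart. Nothing in the labels says that the libraries of a group came from separate animals, so the p-values below cover only differences among these libraries, which may be technical.

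The members fall in 2 gene clusters and 4 separate places (GRCm38 coordinates). On chromosome 9, Apoa1 (ENSMUSG00000032083) lies at 46228580 to 46230466, Apoc3 (ENSMUSG00000032081) on the other strand at 46232933 to 46235636, Apoa4 (ENSMUSG00000032080) at 46240696 to 46243459 and Apoa5 (ENSMUSG00000032079) at 46268633 to 46271919, all within 43.3 kb. On chromosome 7, Apoc1 (ENSMUSG00000040564) at 19689481 to 19692660 and Apoe (ENSMUSG00000002985) at 19696109 to 19699188 share a 27.6 kb stretch with Apoc4 and Apoc2. Apoa2 (ENSMUSG00000005681) is on chromosome 1 at 171225054 to 171226379, Apob (ENSMUSG00000020609) on chromosome 12 at 7977648 to 8016835, Apom (ENSMUSG00000024391) on chromosome 17 at 35128997 to 35132050 and Mttp (ENSMUSG00000028158) on chromosome 3 at 138089854 to 138144968. Opposite-strand genes overlap 69.8% of the exon bases of Apoa4, 20.8% of those of Apoa5 and 9.49% of those of Mttp. Since the sources used here do not give the strand setting of the counting, reads of these 3 genes and of their antisense partners cannot be told apart. None of the members shared a 50-base stretch of transcript with another gene.

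RefSeq promoter windows of GRCm38.p6, the 250 bases before an annotated start, matched 8 members in 12 windows. The 4 shown belong to the paired high-density lipoprotein genes Apoa1 and Apoa2, whose levels parted under intermittent hypoxia, to Apoa5, the member whose windows held the hypoxia response core, and to Apob, whose protein every very-low-density particle needs. They are written 5′ to 3′ on the gene's strand, with capitals for matches to the motifs searched. The runs for Apoa1 and Apob stop where an annotated exon begins.
Apoa1 (chr9:46228380-46228579, + strand): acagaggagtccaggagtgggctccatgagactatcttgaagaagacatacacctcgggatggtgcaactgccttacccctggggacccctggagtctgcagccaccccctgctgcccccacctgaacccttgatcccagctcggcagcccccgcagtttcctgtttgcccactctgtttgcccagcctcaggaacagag
Apoa2 (chr1:171224804-171225053, + strand): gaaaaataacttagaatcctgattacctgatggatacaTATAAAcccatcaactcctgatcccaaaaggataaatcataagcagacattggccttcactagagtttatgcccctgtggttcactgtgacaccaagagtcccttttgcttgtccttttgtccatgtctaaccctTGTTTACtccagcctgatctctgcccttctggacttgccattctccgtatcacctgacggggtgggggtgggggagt
Apoa5 (chr9:46268358-46268607, + strand): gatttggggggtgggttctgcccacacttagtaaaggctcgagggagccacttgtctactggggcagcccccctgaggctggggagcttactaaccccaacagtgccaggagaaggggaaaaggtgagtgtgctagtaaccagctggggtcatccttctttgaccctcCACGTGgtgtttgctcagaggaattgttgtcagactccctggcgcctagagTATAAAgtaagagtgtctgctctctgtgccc
Apob (chr12:7977427-7977647, + strand): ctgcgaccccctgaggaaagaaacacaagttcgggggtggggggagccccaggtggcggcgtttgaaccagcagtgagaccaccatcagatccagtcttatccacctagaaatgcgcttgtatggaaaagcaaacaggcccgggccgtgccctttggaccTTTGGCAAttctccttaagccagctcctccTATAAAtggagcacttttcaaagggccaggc
Both strands were searched for ACGTG (the core that hypoxia-inducible factors bind), CACGTG (an E-box), TGTTTAC (forkhead), TTATGNAA (D-box), TTNNGCAA (C/EBP), CAAAGTCCA and AGGTCAAAG (HNF4A) and TATAAA (the TATA box). ACGTG was found in the windows of 1 member, Apoa5, against 16.6% of 32851 RefSeq promoters. In the window shown it lies 82 bases before the start on one strand and 81 on the other, because the palindrome CACGTG holds the core on both strands. The bases just after that window were not found in a GENCODE transcript of Apoa5. Those after the other Apoa5 window, which ends at 46268632, were found, and there the core lies 107 and 106 bases before the start. CACGTG itself was in 6.02% of promoters. The Apoa2 window held TGTTTAC 77 bases before its start, a match present in 3.17% of promoters, and TATAAA at 212. The Apob window held TTNNGCAA at 90 and TATAAA at 60, which 9.56% and 12.4% of promoters contain. The Apoa1 run held none of these motifs. A match describes letters and not a bound site.

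Levels per length spanned a wide range. In room air, Apoc1 stood at 19172.9 ± 2148.1 and Apoa2 at 15108 ± 1967 CPM per kb of the longest coding transcript (mean ± SD, n = 4). Apoe followed at 11808.3 ± 852.2, Apoa1 at 9920.8 ± 1519.5, Apoc3 at 4062.3 ± 552.7 and Apoa5 at 459.6 ± 89.5 CPM per kb. Apom at 103.6 ± 21.6, Apob at 80.3 ± 10.4, Apoa4 at 67.8 ± 15.9 and Mttp at 52.7 ± 6.60 CPM per kb closed the order. Neighbours in this order had overlapping room air ranges except Apoa1 and Apoc3, Apoc3 and Apoa5, and Apoa5 and Apom. Apoc1 and Apoa2 exchanged ranks 1 and 2 between libraries. Apoe at rank 3, Apoa1 at 4, Apoc3 at 5 and Apoa5 at 6 kept their rank in all 16 libraries, while Apob, Apom, Apoa4 and Mttp moved among ranks 7 to 10. The members together took 4.99 ± 0.0805% of counts in room air and 6.06 ± 0.666% under sustained hypoxia. Their share was 4.26 ± 0.738% under intermittent and 4.85 ± 1.5% under overlap hypoxia. With ribosomal, mitochondrial and major urinary protein (Mup) genes set aside, the shares were 6.90 ± 0.582%, 7.54 ± 0.554%, 7.08 ± 0.530% and 6.76 ± 1.23%.

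**Figure D1:**
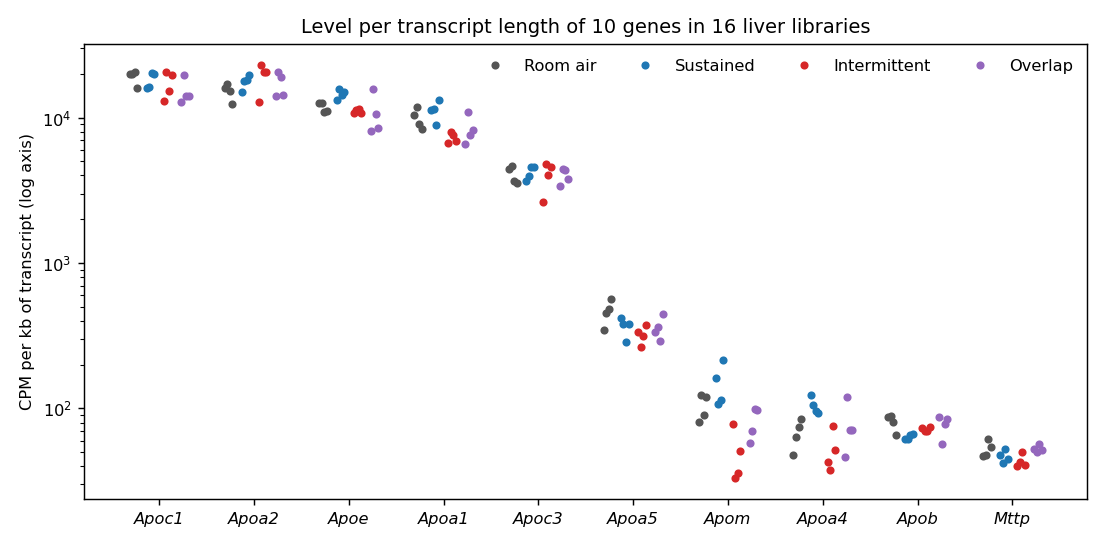
Level of each gene in CPM per kb of the longest coding transcript (log axis) in 16 liver libraries, 1 point per library, coloured by group. Apoc1 and Apoa2 are at the top, Apoe, Apoa1, Apoc3 and Apoa5 hold ranks 3 to 6, and Apom, Apoa4, Apob and Mttp overlap at the bottom.

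Intermittent hypoxia was the exposure under which members of the family were called against room air. Apom, Apoa5 and Apoa1 fell, none rose, and 9 of the 10 had a negative log2 fold change, with a median of −0.22 against 0.03 over all genes tested. A gene was called at an adjusted p under 0.05 from edgeR's quasi-likelihood test, adjusted over all 14553 genes. Of all genes, 37.1% were called in either direction and 18.3% were called lower, and read against these backgrounds 3 of 10 does not set the family apart. Whether groups overlap is described below for single genes. The share of all genes without overlap was not counted, so a lack of overlap does not set a member apart.

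Apom encodes a lipocalin carried mainly on high-density lipoprotein. Its 4 intermittent hypoxia libraries held 78.6, 33.5, 36.2 and 52.0 CPM, and its room air libraries 81.3, 124.9, 91.3 and 122.1 CPM. Every intermittent library was below every room air library, though the highest of the first and the lowest of the second were close. The log2 fold change was −1.07 with a standard error of 0.29 (edgeR adjusted p = 0.00839), and the call was kept when any 1 library was left out. Sustained hypoxia libraries held 165.2, 108.3, 115.3 and 217.1 CPM and overlap libraries 58.3, 70.9, 100.6 and 98.1 CPM. The order of group means was sustained, room air, overlap, intermittent, and Apom had the widest range of the family, 6.48-fold from the lowest to the highest library.

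Apoa1 encodes apolipoprotein A-I, the main protein of high-density lipoprotein. It held 6923.9, 8220.1, 7844.4 and 7134.7 CPM under intermittent hypoxia and 10795.7, 12227.7, 9346.7 and 8701.9 CPM in room air. The groups did not overlap, and the log2 fold change was −0.45 with a standard error of 0.17 (edgeR adjusted p = 0.0448). This call was near its threshold, and a fit of the compared groups alone did not make it (−0.43, adjusted p = 0.0553). Leaving out room air replicate 1, 2 or 3, sustained hypoxia replicate 2, or any 1 intermittent hypoxia library ended it, with adjusted p between 0.0518 and 0.135. Under sustained hypoxia Apoa1 held 11699.7, 11879.8, 9274.4 and 13576.7 CPM and under overlap hypoxia 6847.5, 11280.5, 7916.5 and 8543.5 CPM, both overlapping room air.

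Apoa5 encodes a scarce plasma apolipoprotein that enhances the removal of triglyceride by lipoprotein lipase. Its room air libraries held 867.6, 1132.9, 1211.7 and 1411.4 CPM and its intermittent libraries 841.4, 661.7, 785.5 and 939.8 CPM. Room air replicate 1 lay inside the intermittent range, so the groups overlapped. The log2 fold change was −0.52 with a standard error of 0.17 (edgeR adjusted p = 0.0220). Leaving out room air replicate 3 or 4 or intermittent hypoxia replicate 2 or 3 ended the call, with adjusted p between 0.0556 and 0.0908. Apoa5 was also lower on average in sustained hypoxia, with 1045.4, 949.8, 719.7 and 956.9 CPM, and in overlap hypoxia, with 844.8, 908.3, 732.8 and 1120.4 CPM. Those log2 fold changes against room air, −0.33 and −0.36, did not pass the test (adjusted p = 0.471 and 0.213).

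**Figure D2:**
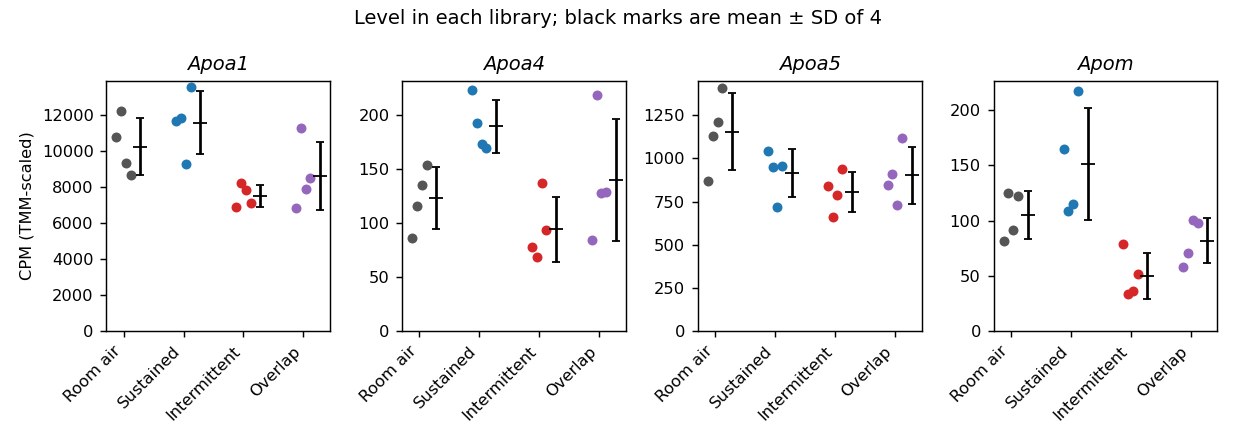
CPM of the 4 genes called in any comparison, 1 point per library, with the mean ± SD of 4 libraries in black. All 4 intermittent hypoxia libraries lie below all room air libraries for Apoa1 and Apom, whereas for Apoa5 room air replicate 1 at 867.6 CPM lies within the intermittent hypoxia range.

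The other 7 members were not called in this comparison. Apoa2, which encodes the second protein of high-density lipoprotein, was the 1 member with a positive log2 fold change, 0.35 with a standard error of 0.18 (edgeR adjusted p = 0.146). Its intermittent libraries held 6604.2, 11974.9, 10584 and 10697.8 CPM and its room air libraries 8238.7, 8780.2, 7883.9 and 6401 CPM, so that 3 of 4 exposed libraries lay above all controls and replicate 1 did not. Without intermittent hypoxia replicate 1 it was called higher, at 0.49 (adjusted p = 0.0285). Mttp held 158.6, 168.9, 197.9 and 162.4 CPM under intermittent hypoxia and 186.8, 189.4, 242.6 and 216.2 CPM in room air. Its log2 fold change of −0.28 with a standard error of 0.12 missed the threshold (adjusted p = 0.0799), and it passed at −0.34 without room air replicate 1 (adjusted p = 0.0492). Apob, at 1028.6, 981, 968.1 and 1040.7 CPM against 1209.8, 1229.2, 1123.5 and 913.3 CPM, had −0.16. Apoa4, an apolipoprotein of triglyceride-rich and high-density particles that the intestine also makes in quantity, had −0.39, and Apoc1, Apoe and Apoc3 had −0.17, −0.09 and −0.02.

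The calls in intermittent hypoxia depended on how the libraries were modelled and scaled. With the ribosomal RNA share of each library as a covariate, none of the 3 calls was kept: Apom stood at −0.61 (edgeR adjusted p = 0.615), Apoa5 at −0.33 (0.651) and Apoa1 at −0.37 (0.608), and 0.529% of all genes were called. The standard errors of Apom, Apoa5 and Apoa1 rose to 0.56, 0.33 and 0.33, from 0.29, 0.17 and 0.17 without the covariate. Because that share separated the groups, exposure and ribosomal RNA content cannot be told apart in this fit. Fold changes against room air were also larger for longer transcripts, with a Spearman correlation of 0.32 across 14532 genes, which are not independent replicates. With offsets for length and GC content, Apom was at −0.76 (adjusted p = 0.0554), Apoa1 at −0.30 (0.140) and Apoa5 at −0.68, still called. Under the same offsets Apob, the longest transcript of the family at 13934 bases, was called lower at −0.77 (1.03e-04) and Apoa2, the shortest at 518 bases, higher at 0.70 (0.00540). Upper-quartile scaling, which moved the median of all genes from 0.03 to 0.12, left 1 call, Apom, with Apoa5 at −0.43 (0.0514) and Apoa1 at −0.36 (0.105). Of 11 Kupffer cell and macrophage markers, 9 were also called lower, with a summed level of 53.3 to 102.0 CPM against 123.7 to 229.1 CPM and none at 0 in a group. Of 9 hepatocyte markers 3 were called lower, where 18.3% of all genes were. Stellate cell and fibroblast markers had 3 of 9 called higher and 0 lower. Sinusoidal endothelial markers had 2 of 8 higher and 1 lower, and 0 of 6 cholangiocyte markers were called. The enterocyte marker sum was 45.8 to 83.4 CPM against 95.4 to 139.2 CPM, with 5 of its 8 genes at 0 in each group. The part of these shifts in the members' values was not tested.

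**Figure D3:**
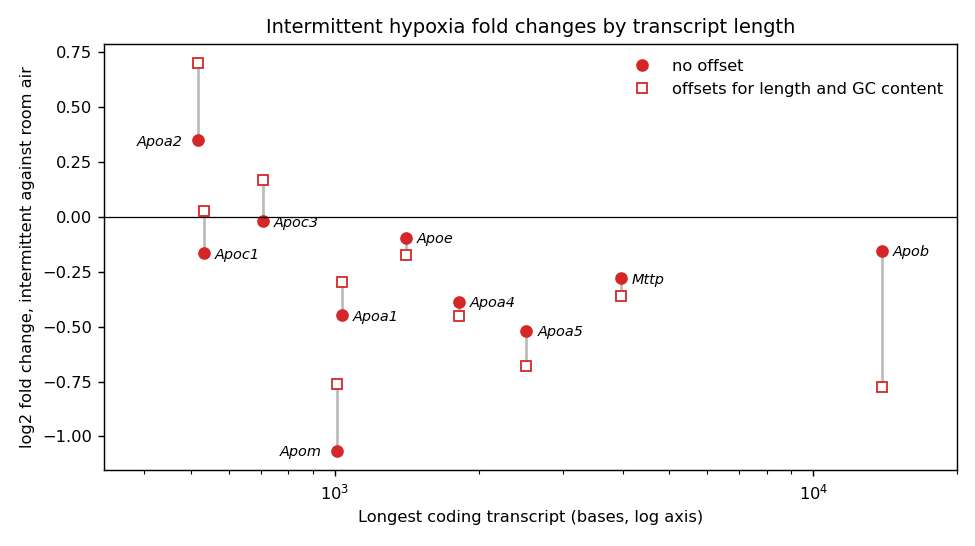
Log2 fold change of each gene in intermittent hypoxia against room air over the length of its longest coding transcript (log axis), without offsets (filled circles) and with offsets for length and GC content (open squares). Offsets moved the short Apoa2 from 0.35 to 0.70 and the long Apob from −0.16 to −0.77.

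Under sustained hypoxia no member was called, nor were nearly any genes, since 0.0481% of all genes passed. DESeq2 and limma-voom called 0 members as well, and 2 of the 10 had an unadjusted p under 0.05, against 11.5% of all genes. The first was Apoa4, with 223.6, 192.5, 173.2 and 169.4 CPM against 86.6, 116.1, 135.7 and 153.9 CPM in room air. Its groups did not overlap, which was not counted over all genes, and the log2 fold change was 0.62 with a standard error of 0.26 (edgeR adjusted p = 0.358). The second was Apob, with 854.8, 852.3, 910.6 and 936.3 CPM, a log2 fold change of −0.33 and a standard error of 0.14 (adjusted p = 0.361). Room air replicate 4, at 913.3 CPM, was the 1 control inside the sustained range. Apoe encodes the ligand by which remnant particles are taken up by hepatocytes. It held 18653.2, 22169.5, 20229.1 and 21151.1 CPM, all above the room air values of 17619.3, 17705.4, 15487.9 and 15692 CPM, with a log2 fold change of 0.31 and a standard error of 0.18 (adjusted p = 0.539). Erythroid markers summed to 417.6 to 2075.7 CPM in the sustained libraries and 252.5 to 711.8 CPM in room air, and their part in these values was not tested. The remaining log2 fold changes ran from −0.33 for Apoa5 to 0.53 for Apom.

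Overlap hypoxia against room air likewise called no member, by edgeR, DESeq2 or limma-voom, where 6.29% of all genes were called by edgeR. The fold change nearest its threshold was that of Apoa5 at −0.36, the 1 member of 10 with an unadjusted p under 0.05, against 22.8% of all genes. Apoc1, which encodes a small apolipoprotein that inhibits lipoprotein lipase and receptor uptake, had −0.34 (edgeR adjusted p = 0.254), at 6838.5, 10418.4, 7505.6 and 7432 CPM against 10652.7, 10677.3, 10970.5 and 8499.6 CPM. Overlap replicates 1, 3 and 4 lay below all room air libraries and replicate 2 did not. Mttp had the smallest log2 fold change, 0.0036, at 207.4, 197.9, 225.8 and 206.2 CPM. Apoc3, whose product slows the clearance of triglyceride-rich particles, had −0.03, at 2381.7, 3159.5, 3101 and 2672.1 CPM against 3125.3, 3299.4, 2592.5 and 2503.4 CPM. Its log2 fold changes under sustained and intermittent hypoxia were 0.05 and −0.02. Kupffer cell markers summed to 54.4 to 65.4 CPM in the overlap libraries and sinusoidal endothelial markers to 48.2 to 86.9 CPM, both below all room air libraries (123.7 to 229.1 and 102.1 to 127.1 CPM), and their part in these values was not tested.

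**Figure D4:**
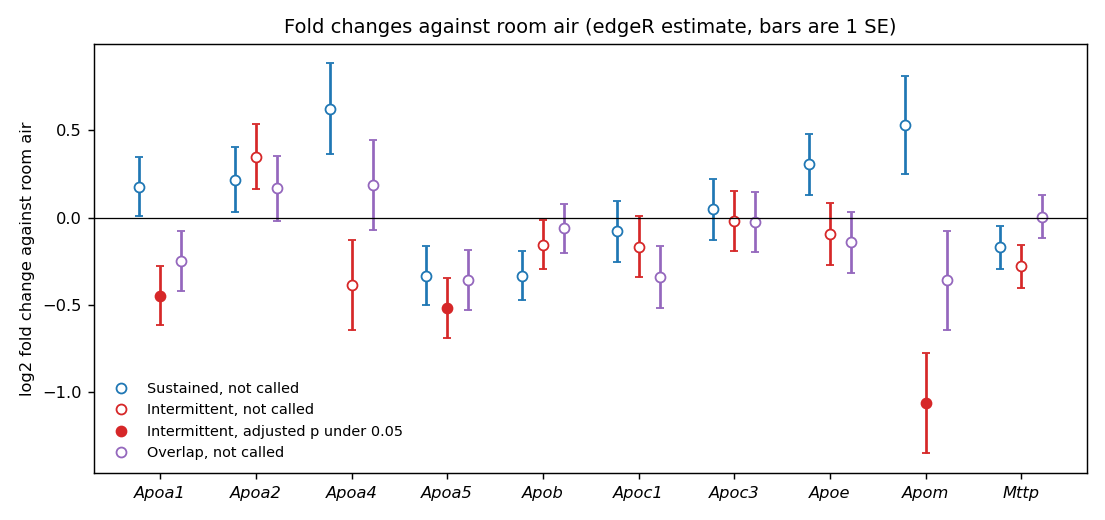
Log2 fold change of each gene against room air in the 3 exposures, as the edgeR estimate with bars of 1 standard error. Filled points, for Apoa1, Apoa5 and Apom in intermittent hypoxia, have an adjusted p under 0.05, and open points do not. The 3 comparisons share the room air libraries.

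Sustained and intermittent hypoxia differed directly in 3 members, all higher in the sustained libraries, with 38.4% of all genes called and 18.9% called higher. This comparison shares its intermittent libraries with the one against room air. Apom was 3.02-fold higher, a log2 difference of 1.60 with a standard error of 0.29 (edgeR adjusted p = 6.00e-04). Apoa4 was 2.02-fold higher, from 77.8, 68.2, 136.7 and 93.6 CPM in the intermittent libraries, a log2 difference of 1.01 with a standard error of 0.26 (adjusted p = 0.00596). Apoa1 was 1.54-fold higher, a log2 difference of 0.62 with a standard error of 0.17 (adjusted p = 0.00712). In all 3 every sustained library exceeded every intermittent one, which was not counted over all genes. Apoe did so too, with 15171.9, 16000.1, 16003.2 and 15118.2 CPM in the intermittent libraries and a difference of 0.40, but was not called (adjusted p = 0.0783). It was called by DESeq2 (0.0455) and limma-voom (0.0464), and by edgeR without overlap hypoxia replicate 2 (0.0195). Apob was lower in every sustained library than in any intermittent one, by −0.18 (adjusted p = 0.341). With the length and GC offsets that sign turned, to 0.68 (3.05e-04), the Apoa1 call was lost at 0.30 (0.134) and Apoa2 was called lower at −0.59 (0.0166). With the ribosomal share as covariate, Apom stood at 1.08 (0.552), Apoa4 at 0.77 (0.648) and Apoa1 at 0.53 (0.622).

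Overlap hypoxia did not separate from sustained hypoxia in any member by edgeR, where 0.165% of all genes were called. DESeq2 called 6.16% of all genes in this comparison and limma-voom 8.41%. An unadjusted p under 0.05 was found for 3 of the 10, against 20.5% of all genes. Apom was lower in every overlap library than in any sustained one, a log2 difference of −0.89 with a standard error of 0.29 (edgeR adjusted p = 0.103), and DESeq2 called it (0.0224). Apoe and Apoa1 were at −0.45 (0.158) and −0.42 (0.164), and limma-voom called both, at 0.0182 and 0.0438. Overlap replicate 2 decided the values of Apoe and Apoa1. It held 22029.4 CPM of Apoe where the other overlap libraries held 11427.2, 14910.5 and 11916.4, and it had the highest Apoa1, Apoa4 and Apoc1 and the lowest Apob of its group. Without it edgeR called Apoe lower at −0.68 (adjusted p = 0.00764) and Apoa1 lower at −0.57 (0.0303). That fit called 10.3% of all genes. Ribosomal RNA took 2.54% of the counts of overlap replicate 2, and 9.83%, 9.23% and 16.8% in replicates 1, 3 and 4. The part of this in its values was not tested.

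Against intermittent hypoxia the overlap libraries showed 0 called members by edgeR, DESeq2 and limma-voom, with 6.15% of all genes called by edgeR. At an unadjusted p under 0.05 stood 3 of the 10, against 25.3% of all genes. These were Apom at 0.71 (edgeR adjusted p = 0.135), Apoa4 at 0.58 (0.174), whose overlap libraries held 84.5, 218.8, 128.3 and 129 CPM, and Mttp at 0.28 (0.153). All 3 had overlapping groups, though for Mttp the highest intermittent and the lowest overlap library both stood at 197.9 CPM. Apom was called without intermittent hypoxia replicate 1, at 1.02 (adjusted p = 0.0416). The departure of overlap hypoxia from the sum of both single log2 changes was called for 0 members by the same 3 tools, against 0.454% of all genes by edgeR. Mttp, at 0.45 with a standard error of 0.17 (edgeR adjusted p = 0.191), and Apob, at 0.43 with a standard error of 0.20 (0.273), were the 2 of 10 with an unadjusted p under 0.05, a share near the 17.5% of all genes. Both were negative in each single exposure and near 0 in the combination, at 0.0036 and −0.06. The sources used here do not give the strength of each exposure in the combination, so this departure only describes the libraries.

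Ratios of 2 members within a library do not depend on how libraries were scaled, and 6 were computed per length and are given as a description. Apoa2 to Apoa1, the transcripts of the paired high-density lipoprotein proteins, was 1.53, 1.44, 1.69 and 1.47 in room air and 1.32, 1.55, 2.02 and 1.49 under sustained hypoxia. Under intermittent hypoxia it was 1.91, 2.91, 2.70 and 2.996, and under overlap hypoxia 2.12, 1.89, 2.47 and 1.74. All libraries of the latter groups lay above all room air libraries, with means of 2.63 ± 0.497 and 2.05 ± 0.320 against 1.53 ± 0.111 (SD, n = 4). Apoa1 to Apob, a ratio of high-density to very-low-density structural transcripts, was 123.6 ± 9.57 in room air and 176.1 ± 26.4 under sustained hypoxia, without overlap. It was 101.2 ± 11.4 under intermittent and 115.5 ± 51.8 under overlap hypoxia, where replicate 2 reached 191.5 and the others 75.3 to 97.7. Apoc3 to Apob (65.7 ± 4.83 against 50.7 ± 3.78) and Apoe to Apoc1 (0.814 ± 0.112 against 0.621 ± 0.0673) were also higher in every sustained library than in any room air library. Mttp to Apob, the transfer protein against its substrate, overlapped room air in all 3 exposures, from 0.604 ± 0.0818 to 0.734 ± 0.0666 against 0.669 ± 0.149. Apoa5 to Apoc3, which have opposite effects on triglyceride clearance, did so too, at 0.0853 to 0.0915 against 0.116 ± 0.0360. The Spearman correlation between length and fold change, with room air as reference, was −0.15 for sustained hypoxia, 0.32 for intermittent hypoxia and 0.26 for overlap hypoxia, and it was 0.41 for overlap against sustained hypoxia. The part of length in ratios between genes of unequal length was not tested.

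**Figure D5:**
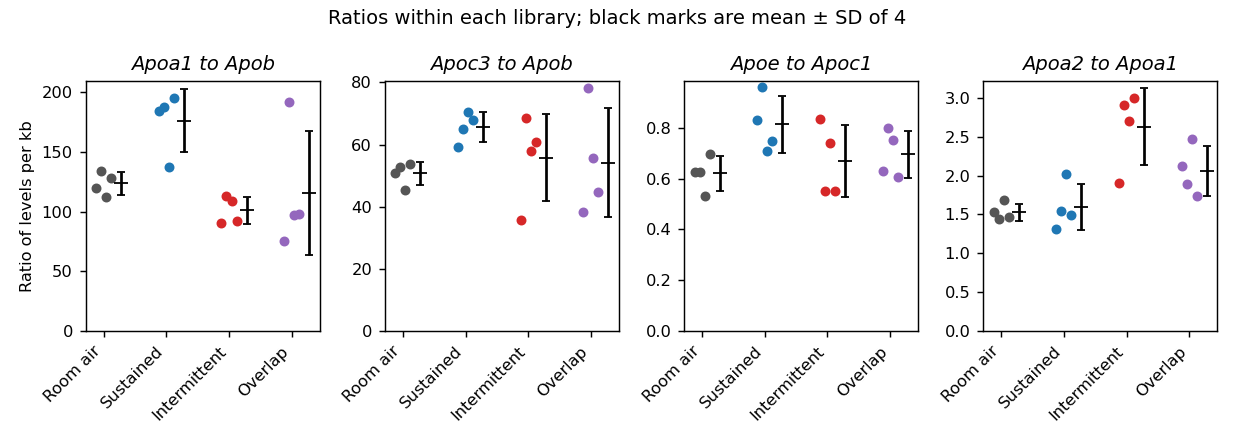
Ratios of levels per kb within each library, 1 point per library, with the mean ± SD of 4 libraries in black and axes from 0. Apoa2 to Apoa1 is higher in every intermittent and overlap hypoxia library than in room air, and the other 3 ratios are higher in every sustained hypoxia library than in room air.

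Among the 45 pairs of members, the log2 ratio was steadiest for Apoa2 and Apoc3, with an SD of 0.160 over 16 libraries, followed by Apoc1 and Apoc3 at 0.179 and Apoa1 and Apoe at 0.205. It was loosest for Apoa2 and Apom, at 0.866. The genes of each of these 3 steadiest pairs lie on different chromosomes. Over 16 libraries, and 5020 genes of at least 10 CPM, the gene whose log2 level was most like that of Apom was Emc10 (Pearson r = 0.972), and for Apoa1 it was Rps19bp1 (0.923). For Apob it was Naa15 (0.913), for Apoa4 Tm7sf3 (0.911), for Mttp Prelid3b (0.909), for Apoe Ndufa13 (0.906), for Apoa2 Uqcrb (0.855) and for Apoa5 Jtb (0.855). Slirp came first for both Apoc1 (0.886) and Apoc3 (0.851). Apoa2 was the third gene for Apoc3 (0.806), the 1 case where a member stood among another member's 3 most alike genes. These libraries share depth, ribosomal share and group, so the correlations are descriptions.

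The other genes of the pathway were read from 6 lists. Under sustained hypoxia no gene of any list was called. Of 25 tested genes of lipoprotein assembly and secretion, 9 fell and 2 rose under intermittent hypoxia, where 18.3% of all genes were called lower and 18.9% higher. The median log2 fold change was −0.09 against 0.03 over all genes, and the count that rose was 4 with upper-quartile scaling and 5 with length and GC offsets. Those of lowest p were Pla2g12b, an atypical secreted phospholipase family member needed for normal very-low-density lipoprotein output, at −1.33 with a standard error of 0.16 (edgeR adjusted p = 1.02e-05), Sec24d, a cargo subunit of the COPII coat, at −0.99 (4.31e-05), and Sar1b, the GTPase that starts that coat and that large lipoproteins need to leave the endoplasmic reticulum, at −1.26 (6.21e-05). Sar1b averaged 95.4 CPM against 227.8 CPM in room air. Under overlap hypoxia 2 of the 25 fell by edgeR, Pla2g12b at −0.65 (0.0209) and Sar1b at −0.64 (0.0464), where 2.89% of all genes were called lower and 3.41% higher. DESeq2 called 5 of the 25 lower there and limma-voom 4, in fits that called 10.1% and 9.44% of all genes in either direction. The call of Pla2g12b was lost without room air replicate 3 or 4 or overlap replicate 3 (adjusted p 0.0672 to 0.0833), and that of Sar1b in 12 of the 16 fits that left out 1 library. Length and GC offsets also ended both edgeR calls, with Pla2g12b at −0.49 (0.0606) and Sar1b at −0.30 (0.299). So did the ribosomal covariate (0.0697 and 0.131). Sar1b was lost too with upper-quartile scaling (0.0565) and the compared groups alone (0.0558). P4hb, the disulfide isomerase that is the partner subunit of the Mttp product, missed the threshold in overlap hypoxia at −0.45 (adjusted p = 0.0594) and was called lower without overlap replicate 2 (0.0362), by DESeq2 (0.0130), by limma-voom (0.0155) and with offsets (0.0467).

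Of 11 other apolipoprotein and paraoxonase genes tested, 3 fell and none rose under intermittent hypoxia by edgeR. Of all genes, 18.3% were called lower there and 18.9% higher. The list's median was −0.22 against 0.03 over all genes. The 3 that fell were Apof at −0.55 (edgeR adjusted p = 0.00173), Apoc2, the activator of lipoprotein lipase, at −0.56 (0.0126), and Pon3 at −0.35 (0.0459). The call of Pon3 did not survive the removal of room air replicate 2, 3 or 4, of sustained replicate 2, or of intermittent replicate 1 or 2 (0.0509 to 0.131). Nor did edgeR call Pon3 with upper-quartile scaling (0.108), no filter on low counts (0.0600) or the compared groups alone (0.0878). The same held with DESeq2's scaling (0.05095) and without ribosomal, mitochondrial and Mup genes (0.0513). By limma-voom Pon3 was not called either (0.0586). With offsets for length and GC content all 3 calls were lost, with Apof at −0.13 (0.400), Apoc2 at −0.40 (0.0863) and Pon3 at −0.0041 (0.985). Under overlap hypoxia edgeR called none of the 11, while DESeq2 and limma-voom called Apof lower, at −0.38 (0.0175) and −0.46 (0.0115), and edgeR called 2 lower without overlap replicate 2. Of all genes, 6.29% were called there by edgeR, 10.1% by DESeq2 and 9.44% by limma-voom. Without overlap replicate 2 the edgeR share was 7.92%. Of the 3 genes that edit the Apob transcript, which sets whether the long or the short protein is made, the cofactors Rbm47 and A1cf rose under intermittent hypoxia, at 1.07 (6.97e-05) and 0.80 (0.00769). The deaminase Apobec1 was at −0.04. Rbm47 also rose under overlap hypoxia, at 0.84 (0.00761). Editing itself was not measured by these gene counts.

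Of 11 genes of high-density lipoprotein formation and remodelling, 2 rose and 1 fell under intermittent hypoxia and none was called under overlap hypoxia. Of all genes, 18.9% were called higher and 18.3% lower under intermittent hypoxia, and 6.29% were called under overlap hypoxia. Abcg5 and Abcg8, which together form the sterol exporter to bile, rose by 1.28 (edgeR adjusted p = 8.97e-06) and 0.93 (4.45e-05) on the log2 scale, on which all changes here are given. Pdzk1, the scaffold that holds the high-density lipoprotein receptor at the hepatocyte surface, fell by 0.36 (0.0442), a call lost without room air replicate 2 or 4 or intermittent replicate 1 or 2 (0.0830 to 0.133). Upper-quartile scaling (0.117), no filter on low counts (0.0674), the compared groups alone (0.0724) and length and GC offsets (0.1125) also ended that edgeR call. Of 16 genes of clearance and lipase control, 5 rose and 2 fell under intermittent hypoxia, beside the same 18.9% and 18.3% of all genes. The count that rose was 3 without room air replicate 3, with limma-voom and with no filter on low counts, and the count that fell was 1 without intermittent replicate 2 or 3 or with upper-quartile scaling and 4 with length and GC offsets. Furin, a proprotein convertase, rose by 1.29 (1.22e-05) and Vldlr by 2.53 (0.00253) from a low mean of 0.803 CPM to 4.66 CPM. Furin rose under overlap hypoxia too, by 0.85 (0.00659). Sdc1, a heparan sulfate proteoglycan that binds remnants, fell by 0.64 (0.0362) there, a call lost in 6 of the fits that left out 1 library. Upper-quartile scaling (0.0529) and the ribosomal share as covariate (0.0836) also ended that edgeR call.

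Of 27 transcription regulators of apolipoprotein genes, 6 rose and 4 fell under intermittent hypoxia, where 18.9% of all genes were called higher and 18.3% lower. Their median was 0.21 against 0.03 over all genes. With length and GC offsets 2 rose and 8 fell, where 32.6% of all genes were called and 14.1% were called higher. Mlxipl, which encodes the carbohydrate-responsive factor ChREBP, rose by 2.05 on the log2 scale with a standard error of 0.26 (edgeR adjusted p = 3.34e-05), from 34.4 to 142.2 CPM. Foxa3, a liver forkhead factor, fell by 0.85 (1.59e-04). Under overlap hypoxia Mlxipl rose by 1.05 (0.0256) and Usf1, an E-box factor, fell by 0.48 (0.0265), each lost in 5 of the fits that left out 1 library. Both edgeR calls were also lost with no filter on low counts (0.05415 and 0.0740) and the compared groups alone (0.0640 and 0.0723). The ribosomal covariate ended both as well (0.0615 and 0.0787), and offsets ended that of Mlxipl (0.0623). With the ribosomal share as covariate, none of the intermittent hypoxia calls named here outside Abcg5 was kept, but their fold changes did not move alike. Vldlr stood at 3.17 (0.157), Sec24d at −1.23 (0.0508), Abcg8 at 1.12 (0.0539), Foxa3 at −1.03 (0.0851) and Furin at 1.11 (0.0963), near or past their values without it. Mlxipl stood at 1.16 (0.196), Rbm47 at 0.42 (0.445) and A1cf at −0.0051 (0.996).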

How the data were processed

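The deposited values are expected counts of genes, which the authors made with Bowtie 1.3.0 and RSEM on GRCm38, per the submitters' processing notes; 49.2% of nonzero values are not whole. RNA was extracted with Trizol and made into libraries with a TruSeq kit, per the labels' protocols. The sources used here do not give the annotation release, the strand setting or the order of steps. Expected counts were rounded and filtered with filterByExpr (14553 genes kept). Libraries were scaled by TMM and the 16 libraries were fitted in 1 model of 4 group means with edgeR 4.0.16 (robust quasi-likelihood, R 4.3.3). Standard errors were derived from the fold change and the F statistic. The 7 comparisons used Benjamini-Hochberg adjustment at 0.05. The fit was tested on simulated counts. Levels are CPM with TMM scaling, also per kb of the longest coding GENCODE M21 transcript. DESeq2 1.42.0 and limma 3.58.1 (voom with quality weights), other scalings, no filter, the compared groups alone, covariates, offsets (splines with 5 degrees of freedom) and each library left out were alternatives; those for list genes were added after seeing the data.

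The members and lists were chosen with earlier results of these data known. Named genes were all members, up to 3 genes of lowest p per list in each comparison against room air, and the 3 genes most alike to each member. Some genes and a motif that this rule and the search covered are not reported here. Apod and Nr2f1 were listed but not tested because of low counts, and the marker Tf was not matched. Same-group libraries differed beyond sampling noise in all 24 pairs. Replicate numbers were taken as names because the labels give them no meaning. Of 24 same-numbered pairs of libraries, 4 had deviations correlated over 0.1 (r from −0.10 to 0.18), and differently numbered pairs had r from −0.22 to 0.20.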

Additional observations from a re-analysis of the deposited data

Results flagged for a closer look

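The level of Apoc1 in room air replicate 4 was 8499.6 CPM, apart from the other room air libraries, of which the nearest held 10652.7 CPM. The gap was 0.871 of the group's range. Of 40 sets of 4 libraries tested, 1 stood out in this way, and chance marks about 1 in 20. Without this library Apoc1 was still called in none of the 7 comparisons.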

How the results depend on the processing

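Under intermittent hypoxia against room air, 3 members were called lower and 0 higher. The lower count was 2 with the compared groups alone, 1 with upper-quartile scaling and 0 with the ribosomal share as covariate. It was 1 to 3 when a library was left out. With length and GC offsets 3 members were called, 1 of them higher, and the higher count was 0 to 1 when a library was left out. For overlap against sustained hypoxia, the count lower was 0, or 1 with DESeq2, 2 with limma-voom and 0 to 2 when a library was left out. Of all genes, DESeq2 called 2.92% lower there and limma-voom 4.58%, and edgeR called 4.70% lower without overlap replicate 2. For overlap against intermittent hypoxia, the count higher was 0, or 1 with offsets (Apob at 0.50, adjusted p = 0.0237) and 0 to 1 when a library was left out. For sustained against intermittent hypoxia, the count higher was 3, or 0 with the ribosomal covariate. It was 4, with Apoe added, with DESeq2, limma-voom or no filter on low counts, and 3 to 4 when a library was left out. The count lower was 0, or 1 with offsets. Signs turned for Apob in that comparison with offsets (0.68 against −0.18) and for A1cf under intermittent hypoxia with the ribosomal covariate (−0.0051 against 0.80). The causes were not tested. Leaving out 1 of 4 libraries cannot move a difference in log2 ratio beyond the spread used as its limit, so that check decides nothing. The log2 ratio of Apoa1 to Apob in overlap hypoxia minus room air ran from −0.46 to −0.014 over these fits. Division by length shifts a log2 ratio alike in every library, so leaving it out cannot change a difference between groups. Among the other apolipoproteins under intermittent hypoxia, 1 rather than 0 was called higher under 7 of the 10 alternatives that kept all libraries. The ribosomal covariate brought the genes called lower to 0 in every list under intermittent hypoxia.

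With a replicate block, Mttp was called lower under intermittent hypoxia, at −0.28 (edgeR adjusted p = 0.0421), and no other member's call changed. Among the lists, the block moved the assembly genes called higher under intermittent hypoxia from 2 to 4 and the other apolipoproteins called higher from 0 to 1, and under overlap hypoxia it ended the call of Sar1b (−0.60, adjusted p = 0.05002), leaving 1 assembly gene lower. The labels give the numbers no meaning, so the numbers were not taken as pairs. Of 24 same-numbered pairs, 4 correlated over 0.1, with r from −0.10 to 0.18. Differently numbered pairs had r from −0.22 to 0.20, and these values do not decide whether libraries were paired. As a hint from the data and not from the design, 9 of 16 libraries correlated best with libraries of their own number, out of 4 numbers. The levels rest on 4 libraries per group and, in the shallowest, 10940275 counts.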
